A study of Mus musculus with 6 samples.

Results

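The immediate early genes described here encode subunits of the AP-1 transcription factor (Fos, Fosl2, Jun, Junb, Jund and the related Atf3), the zinc finger factor Egr1 and the immediate early response proteins Ier2, Ier3 and Ier5. They are 10 genes chosen by name, each matched to 1 Ensembl gene ID through its GENCODE M21 symbol, among 57010 gene IDs in the deposited table. They were followed in Ba/F3, an interleukin-3 dependent haematopoietic line of the mouse, widely used to study oncogenic kinases. The libraries fall into 2 groups of 3, cells with an empty vector (genotype label WT) and cells overexpressing TPR-FGFR1, in which the coiled-coil part of a nuclear pore protein is joined to the fibroblast growth factor receptor FGFR1. The fusion was delivered by lentivirus, and those cells then spent 6 days under puromycin at 5 µg/ml. The labels do not say whether the empty vector cells were selected, whether the cells are a clone or a pool, whether interleukin-3 was present, or whether replicates are separate cultures, so the p-values reflect only how far these libraries scatter, which may be technical.

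AP-1 is a dimer of basic leucine zipper proteins. JUN proteins can pair with each other or with FOS proteins, and FOS proteins need a JUN partner to bind DNA. Immediate early genes are transcribed within minutes of a growth factor, cytokine or stress signal without new protein synthesis, largely through serum response factor, its ternary complex partners and CREB, and many of their messages are short-lived. Receptor tyrosine kinases such as FGFR1 reach them through RAS and the ERK kinases.

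The promoters of 3 AP-1 subunit genes are shown because Fos is the member most often called lower below, and Jun and Junb encode its partners. They come from the RefSeq promoter table on GRCm38.p6 and end at the base before the annotated start: Fos at chr12:85473640-85473889 on the plus strand, Jun at chr4:95052223-95052472 on the minus strand and Junb at chr8:84978719-84978998 on the minus strand. Capitals mark matches, on either strand, to the GC box GGGCGG, to the shared core site TGACG of cyclic AMP response elements and to the TATA box letters TATAAA.
Fos: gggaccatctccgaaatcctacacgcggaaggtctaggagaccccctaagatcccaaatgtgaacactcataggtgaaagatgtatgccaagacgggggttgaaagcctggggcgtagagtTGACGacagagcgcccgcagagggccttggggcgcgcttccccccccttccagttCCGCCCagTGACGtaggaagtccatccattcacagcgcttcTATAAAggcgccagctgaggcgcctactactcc
Jun: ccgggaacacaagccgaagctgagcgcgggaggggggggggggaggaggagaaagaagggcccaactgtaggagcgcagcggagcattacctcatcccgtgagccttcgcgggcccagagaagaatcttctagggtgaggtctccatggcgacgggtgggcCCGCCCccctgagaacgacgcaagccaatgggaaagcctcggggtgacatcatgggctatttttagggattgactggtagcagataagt
Junb: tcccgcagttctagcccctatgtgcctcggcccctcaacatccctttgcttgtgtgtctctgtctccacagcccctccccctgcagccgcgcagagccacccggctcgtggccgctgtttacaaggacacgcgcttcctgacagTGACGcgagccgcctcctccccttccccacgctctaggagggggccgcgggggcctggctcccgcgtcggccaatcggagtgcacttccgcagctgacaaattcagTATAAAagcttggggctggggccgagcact

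Fos carries a GC box starting 74 bases before its start, core sites 129 and 66 bases before it, and TATAAA 33 bases before it. Jun carries only a GC box, and Junb a core site 106 bases before its RefSeq start and TATAAA at that start, which lies 30 bases upstream of the GENCODE start. The table holds 8 of the 10 members, and Ier2 and Egr1 were not matched. The RefSeq start differs from the GENCODE start by 1210 bases for Jund, 671 for Fosl2 and 34706 for Atf3, so those windows may not be the promoter in use. In 300-base windows, GGGCGG was found in 6 of the 8 members (all but Junb and Jund) against 35.7% of 32851 promoters, TGACG in Fos, Junb and Atf3 against 20.8%, and TATAAA in Fos and Junb against 13.6%. The whole element TGACGTCA (1.79% of promoters), the AP-1 letters TGANTCA (7.81%), the ETS letters CCGGAAG (8.86%) and the CArG box (CC, 6 of A or T, GG) that binds serum response factor (1.63%) were in 0 of the 8 windows, which says only that these letters are not in that stretch. The searches for TGACG and TATAAA were added after these promoters had been seen.

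The deposited unit is TPM, a length-scaled abundance, so levels of different genes may be set side by side, but no read number can be recovered and depth is unknown. Per library, 12679 to 12839 genes were at 1 TPM or more. Fgfr1 stood at 0.02, 0.04 and 0.05 TPM in the empty vector libraries and at 0.7, 0.58 and 1.26 TPM in TPR-FGFR1 replicates 1, 2 and 3, and the labels do not state the species of the fusion sequence. Although the cells are labelled as B lymphocytes, 12 of 13 B-lineage markers were under 1 TPM in every library, among them Cd79a, Ms4a1 and Pax5, and the summed level of that list was 6.83 to 7.61 TPM with the empty vector and 5.64 to 8.35 TPM with the fusion. All 8 T-cell markers were under 1 TPM as well. Of 12 myeloid and mast cell markers 8 were under 1 TPM in every library, and the summed level of that list was lower in every fusion library, at 189 to 262 TPM against 287 to 298 TPM with the empty vector. Most of that sum was Gata2, at 235 ± 3.73 and 167 ± 42.4 TPM (SD, n = 3 per group, limma adjusted p = 0.0672). Of the 4 tested markers 0 were called, and 2 were called lower after removing from each library a smooth trend over transcript GC content and length, named the GC correction below. Of 7 erythroid markers 0 were under 1 TPM in every library. The summed level of that list was 333 to 404 TPM with the empty vector and 307 to 488 TPM with the fusion. The 6 tested erythroid markers had 0 calls, with 2 higher and 1 lower after that correction. Of all tested genes, 10.2% were called higher and 10% lower, and 16.4% and 15.4% after the correction. The part of these markers in the results below was not tested. A pair of libraries stood apart. TPR-FGFR1 replicate 3 correlated, across the tested genes, no better with TPR-FGFR1 replicates 1 and 2 (r = 0.9635 and 0.962) than with the empty vector libraries (0.9657 to 0.9661). It was the lowest of its group in 51.1% of all tested genes, as was empty vector replicate 1 in 51.6%. Results that turn on these libraries are given without them as well.

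The immediate early genes that changed among the 10 members were lower in the TPR-FGFR1 cells. Of the 10 members, 8 passed the filter of a mean of at least 1 TPM and were tested among 12862 genes, and Fos, Jund and Ier2 fell (limma, Benjamini-Hochberg adjusted p under 0.05). Across all tested genes 10% were called lower and 10.2% higher, while 0 of the 8 members were called higher, also at an unadjusted p under 0.05 and in each of 23 alternative settings. The median log2 fold change of the tested members was −0.52, against 0.02 over all tested genes. In bulk libraries such as these, fewer cells making a transcript and less of it per cell cannot be told apart. The same 3 members were those in which every TPR-FGFR1 library lay below every empty vector library, a pattern met in 20.8% of tested genes.

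**Figure D1:**
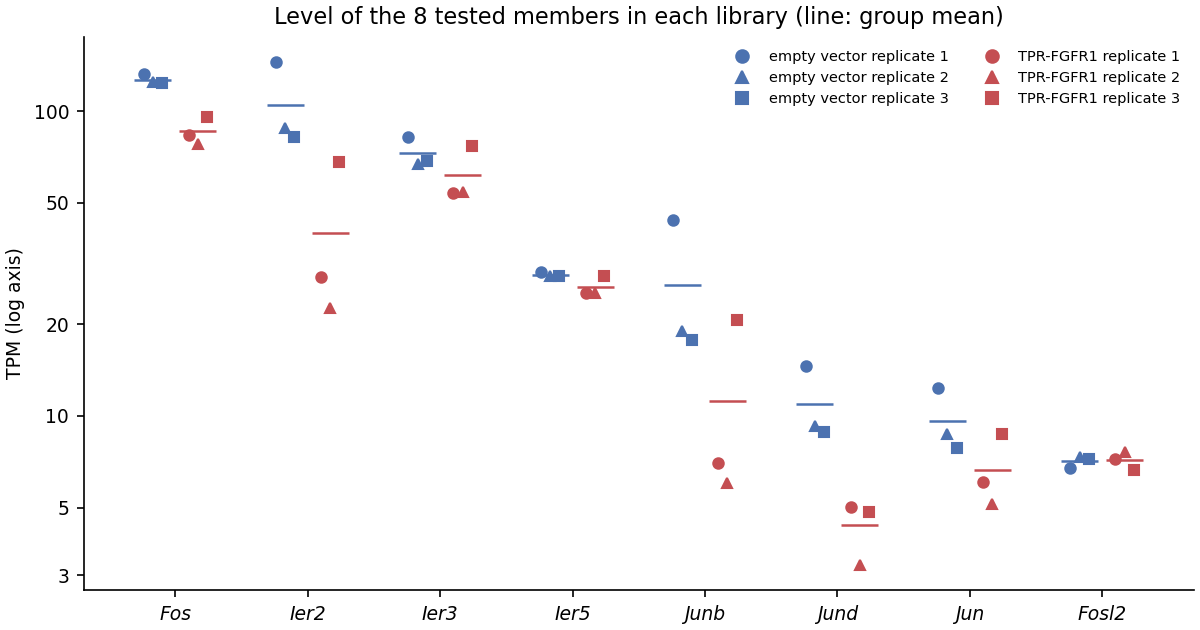
TPM (log axis) of the 8 tested members in each of the 6 libraries, blue for empty vector and red for TPR-FGFR1, with a marker shape per replicate number and a line at each group mean. Fos, Ier2 and Jund are separated between the groups, Fosl2 is level at about 7 TPM, and empty vector replicate 1 and TPR-FGFR1 replicate 3 are the highest of their groups for most members.

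Fos, the founding member of its family and the member with the highest mean in both groups, stood at 132, 124 and 123 TPM in the empty vector libraries and at 83.4, 78.1 and 95.9 TPM in TPR-FGFR1 replicates 1, 2 and 3. The groups did not overlap, and the highest TPR-FGFR1 value was that of replicate 3. The mean fell from 127 ± 4.73 TPM to 85.8 ± 9.09 TPM (mean ± SD, n = 3 per group), 32.2% lower, with a log2 fold change of −0.56 (SE 0.0932, limma adjusted p = 0.0131, and p = 0.1 in a two-sided exact permutation test, the smallest that 3 against 3 libraries allow). The change was of like size after the GC correction (−0.47, adjusted p = 0.00348) and without TPR-FGFR1 replicate 3 (−0.64, adjusted p = 0.00117). The call was lost without any 1 empty vector library or without TPR-FGFR1 replicate 1 (adjusted p = 0.0623 to 0.0698).

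Fosl2, which encodes the longer-lived FOS relative FRA-2, stood at 6.73, 7.31 and 7.23 TPM with the empty vector and at 7.2, 7.59 and 6.66 TPM with the fusion. The ranges overlapped almost wholly, and the log2 fold change of 0.01 (SE 0.0941) missed the threshold (limma adjusted p = 0.948). Its adjusted p ran from 0.0722 to 0.984 over the 23 settings, so no setting called it. Fos messages outnumbered Fosl2 messages 19.6, 17 and 17.1 to 1 in the empty vector libraries and 11.6, 10.3 and 14.4 to 1 in the fusion libraries, a ratio that does not depend on the scaling of a library. That ratio, chosen after the values were seen, did not overlap between the groups and was lower with the fusion.

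Fosb and Fosl1 complete the family and were not among the 10 members. Fosb, whose product resembles FOS, stood at 17.5, 17.4 and 17.9 TPM and at 16.1, 14.3 and 18.9 TPM (log2 fold change −0.10, limma adjusted p = 0.522). After the GC correction its direction turned and it was called higher (0.18, adjusted p = 0.0274). Fosl1, which encodes FRA-1, was under the filter at 0.69 to 2.28 TPM with the empty vector and 0.52 to 0.57 TPM with the fusion.

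Among the JUN genes, only Jund was called. Its product, JUND, is the JUN protein that resting cells usually hold and that often restrains growth. Jund stood at 14.6, 9.24 and 8.88 TPM with the empty vector and at 5.04, 3.24 and 4.84 TPM with the fusion. Empty vector replicate 1 was the highest, and the groups were apart with and without it. The mean fell from 10.9 ± 3.19 TPM to 4.37 ± 0.987 TPM (mean ± SD, n = 3 per group), 59.9% lower, with a log2 fold change of −1.13 (SE 0.219, limma adjusted p = 0.0184; p = 0.1 by the exact two-sided permutation test). Jund has the most GC-rich transcript (67.2%), and after the GC correction its log2 fold change was −0.36 and no longer called (adjusted p = 0.14). Leaving out any 1 library other than TPR-FGFR1 replicate 3 also ended the call (adjusted p = 0.0589 to 0.0717). The antisense gene Gm11175 overlaps it and was listed at 3.37, 0.89 and 0 TPM with the empty vector and at 0 in all fusion libraries. Since the strand setting of the quantification is not given in the sources used here, reads of the pair may not have been told apart.

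Junb encodes a JUN protein that is quickly induced by cytokines and can oppose JUN in cell proliferation. It stood at 43.9, 18.9 and 17.7 TPM with the empty vector and at 7.01, 6.01 and 20.6 TPM with the fusion. TPR-FGFR1 replicates 1 and 2 lay below every other library, whereas replicate 3 lay above empty vector replicates 2 and 3. The log2 fold change of −1.26 had a standard error of 0.5 and was not called (limma adjusted p = 0.11; p = 0.3 by the exact two-sided permutation test). Without TPR-FGFR1 replicate 3 it was −1.77 and called (adjusted p = 0.0161). After the GC correction it was −0.69 with all 6 libraries (adjusted p = 0.194) and −0.99 without TPR-FGFR1 replicate 3 (adjusted p = 0.0599), neither called. Leaving out both that library and empty vector replicate 1, an alternative chosen after the data were seen, gave −1.37 (adjusted p = 0.00349). With the GC correction added to that alternative it was −0.67 (adjusted p = 0.00459). In all, 4 of 23 settings called Junb lower. Junb overlaps the end of Prdx2 on the opposite strand, which stood at 57.2 to 78.5 TPM over the 6 libraries (adjusted p = 0.857).

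Jun, the founding JUN gene, whose protein drives its own promoter, stood at 12.4, 8.71 and 7.82 TPM with the empty vector and at 6.08, 5.14 and 8.7 TPM with the fusion. Replicate 3 of the fusion lay within the empty vector range and replicates 1 and 2 below it. The log2 fold change of −0.48 (SE 0.217) missed the threshold (limma adjusted p = 0.148), and was −0.67 without TPR-FGFR1 replicate 3 (adjusted p = 0.0369). After the GC correction it was −0.21 (adjusted p = 0.397). Its antisense gene Junos averaged 0.157 and 0.277 TPM in the groups.

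**Figure D2:**
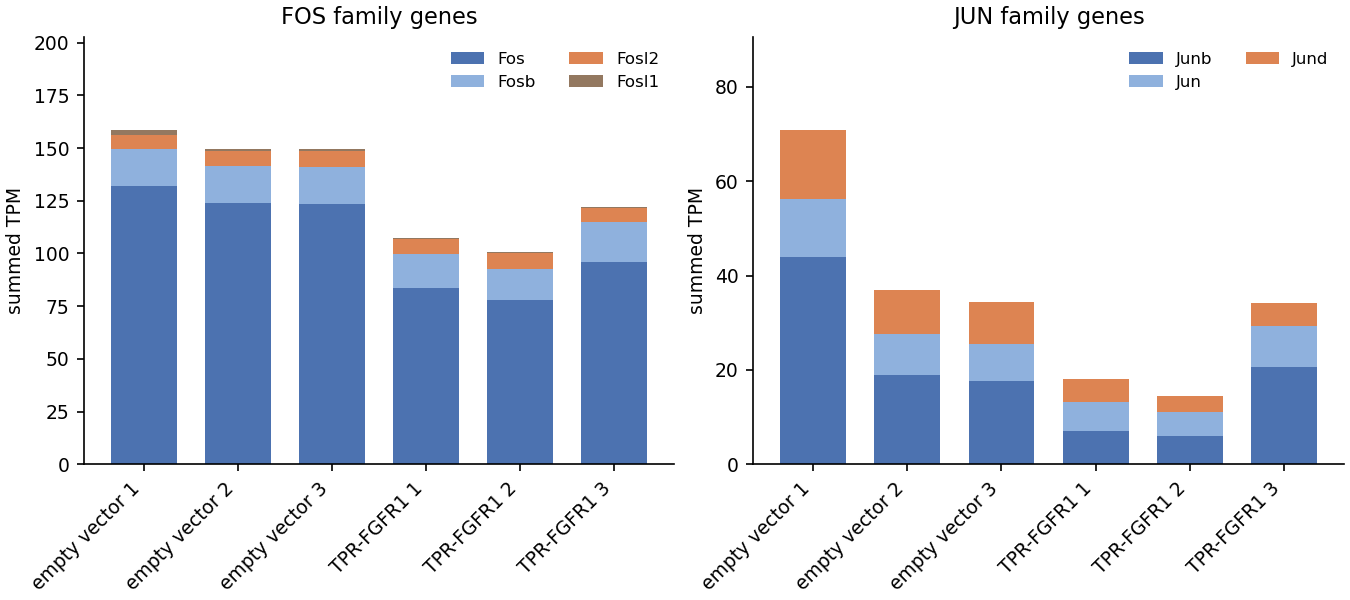
Summed TPM of the FOS family genes (left) and JUN family genes (right) in each library, stacked by gene, with both axes starting at 0. The FOS sum is lower in all 3 TPR-FGFR1 libraries and is mostly Fos, while the JUN sum is lowest in TPR-FGFR1 replicates 1 and 2.

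Summed over Fos, Fosb, Fosl1 and Fosl2, FOS family messages made up 159, 150 and 150 TPM with the empty vector and 107, 101 and 122 TPM with the fusion. Summed over Jun, Junb and Jund, JUN family messages made up 70.8, 36.9 and 34.4 TPM and then 18.1, 14.4 and 34.1 TPM. FOS messages thus exceeded JUN messages in every library, by 2.24, 4.05 and 4.35 times with the empty vector and by 5.92, 6.99 and 3.58 times with the fusion. Those ratios overlapped, since TPR-FGFR1 replicate 3 lay between empty vector replicates 1 and 2. Within the FOS family, Fos held 82.5% to 83.3% with the empty vector and 77.7% to 78.6% with the fusion, so the other FOS genes summed to a larger share in each fusion library, although the Fosl1 share averaged 0.894% and 0.499%. Within the JUN family, Junb was the largest contributor in each library, at 51.3% to 61.9% and 38.7% to 60.3%. The Jund share was 20.6% to 25.8% and 14.2% to 27.8%. The Jun share was 17.5%, 23.6% and 22.7% with the empty vector and 33.5%, 35.7% and 25.5% with the fusion, and its groups did not overlap. The sums and shares were taken without the GC correction. Transcript GC content was 55.5% for Jun, 62.6% for Junb and 67.2% for Jund, and its part in the shares was not tested. No test was run on these sums, since they were built from chosen members.

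The largest fitted change belonged to Ier2, whose nuclear product acts as a transcriptional co-regulator. Ier2 stood at 145, 87.7 and 82.3 TPM with the empty vector and at 28.6, 22.6 and 68.1 TPM with the fusion. Every fusion library was below every empty vector library, but replicate 3 was over 2 times as high as replicates 1 and 2. The mean fell from 105 ± 34.7 TPM to 39.7 ± 24.7 TPM (mean ± SD, n = 3 per group), 62.1% lower, with a log2 fold change of −1.50 (SE 0.412, limma adjusted p = 0.0455; p = 0.1 by the exact two-sided permutation test). It was −1.0 after the GC correction (adjusted p = 0.0359) and −1.96 without TPR-FGFR1 replicate 3 (adjusted p = 0.00335). Dropping any 1 of the other 5 libraries ended the call (adjusted p = 0.108 to 0.160).

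Ier3, a stress-induced gene whose product modulates ERK signalling and cell survival, stood at 82.4, 67.2 and 68.6 TPM with the empty vector and at 53.7, 54.1 and 76.9 TPM with the fusion. Replicates 1 and 2 were below the empty vector range and replicate 3 within it, and the log2 fold change of −0.25 (SE 0.159) missed the threshold (limma adjusted p = 0.275). Ier5, whose product acts with the phosphatase PP2A on heat shock factor, had narrow ranges, 29.7, 28.7 and 28.7 TPM against 25.4, 25.2 and 28.8 TPM. Its log2 fold change of −0.13 (SE 0.0814) missed the threshold (limma adjusted p = 0.26). Both were called lower without TPR-FGFR1 replicate 3 (−0.42 and −0.19, adjusted p = 0.0175 and 0.0222), and their changes were −0.07 and −0.02 after the GC correction.

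The inducible factors Atf3 and Egr1 were nearly absent in both groups and were not tested. Atf3, a stress-responsive basic leucine zipper repressor, stood at 0.25, 0 and 0.09 TPM with the empty vector and at 0.19, 0.16 and 0.03 TPM with the fusion (two-sided exact permutation p = 0.9). Egr1, an ERK-induced zinc finger factor, stood at 0.28, 0.32 and 0.32 TPM and at 0.19, 0.35 and 0.23 TPM (two-sided exact permutation p = 0.4). For each of them the range of 1 group lay within that of the other. Egr2, a relative of Egr1, was at 29.0, 27.9 and 31.0 TPM with the empty vector and at 37.4, 29.6 and 33.0 TPM with the fusion (limma adjusted p = 0.241).

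**Figure D3:**
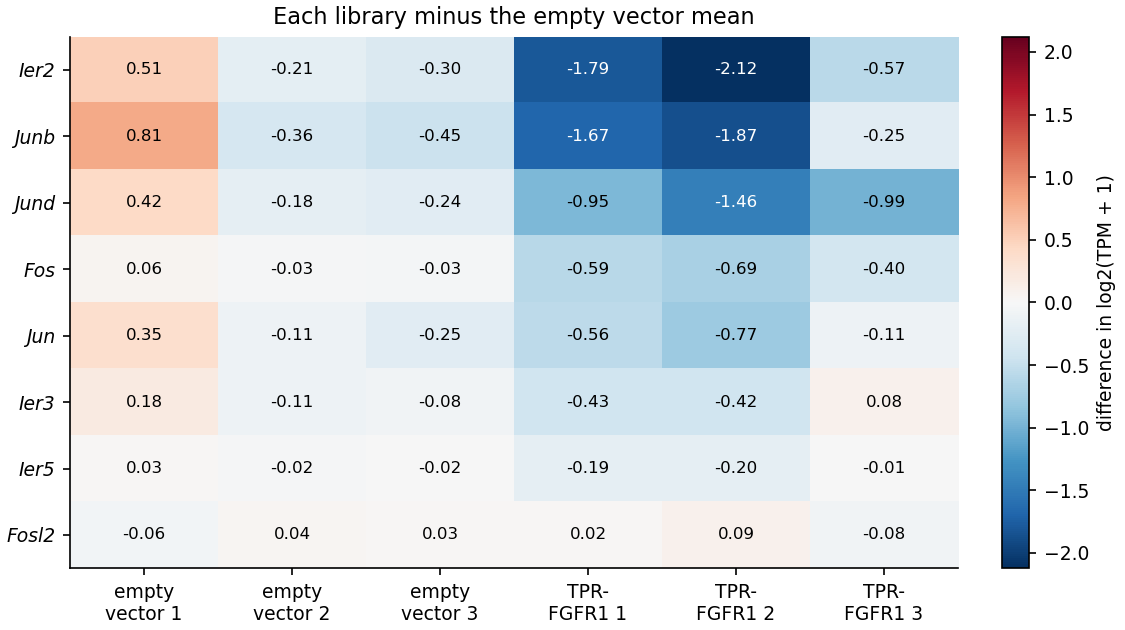
Difference in log2(TPM + 1) of each library from the empty vector mean for the 8 tested members, with the value in each cell (blue lower, red higher). TPR-FGFR1 replicates 1 and 2 are below the mean for 7 members, replicate 3 most clearly for Jund, Ier2 and Fos, and empty vector replicate 1 is above it for the same 7 members.

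Libraries of the same group differed in these genes as much as the groups did for several members. Empty vector replicate 1 held the highest empty vector value in 7 of 8 tested members (all but Fosl2), against 24.6% of all tested genes, and Junb there was 2.48 times its level in empty vector replicate 3. TPR-FGFR1 replicate 3 held the highest fusion value in 6 of 8 (all but Jund and Fosl2), against 34.8% of all tested genes. There Junb was 3.42 times and Ier2 3.02 times the lowest fusion library. Without TPR-FGFR1 replicate 3, 7 of the 8 tested members were called lower, with 23.4% of all tested genes called lower in that fit. Without both that library and empty vector replicate 1, an alternative chosen after the data were seen, the same 7 were called lower, against 22.5% of all tested genes. Fosl2 was the exception in both. With the GC correction added, only Fos and Ier2 (2 members) were called lower without TPR-FGFR1 replicate 3. Without both libraries, 3 were (Fos, Junb and Ier2). In those corrected fits 2390 and 2266 of 12541 tested genes were called lower.

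The order of levels differed between the groups. With the empty vector it ran Fos (127 TPM), Ier2 (105), Ier3 (72.8), Ier5 (29.1), Junb (26.8), Jund (10.9), Jun (9.63), Fosl2 (7.09), Egr1 (0.307) and Atf3 (0.113). The ranges of Fos and Ier2, Ier2 and Ier3, Ier5 and Junb, and Jund and Jun overlapped, so those neighbours were not separated. With the fusion it ran Fos (85.8 TPM), Ier3 (61.5), Ier2 (39.7), Ier5 (26.4), Junb (11.2), Fosl2 (7.15), Jun (6.64), Jund (4.37), Egr1 (0.257) and Atf3 (0.127). There the overlapping neighbours were Ier3 and Ier2, Ier2 and Ier5, Junb and Fosl2, Fosl2 and Jun, and Egr1 and Atf3. Jund exceeded Fosl2 in each empty vector library (2.17, 1.26 and 1.23 to 1) and was below it in each fusion library (0.7, 0.427 and 0.727 to 1), a comparison picked after the values were seen. It was made without the GC correction. After that correction the log2 fold changes of Jund and Fosl2 were −0.36 and 0.13, neither called (limma adjusted p = 0.14 and 0.387).

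**Figure D4:**
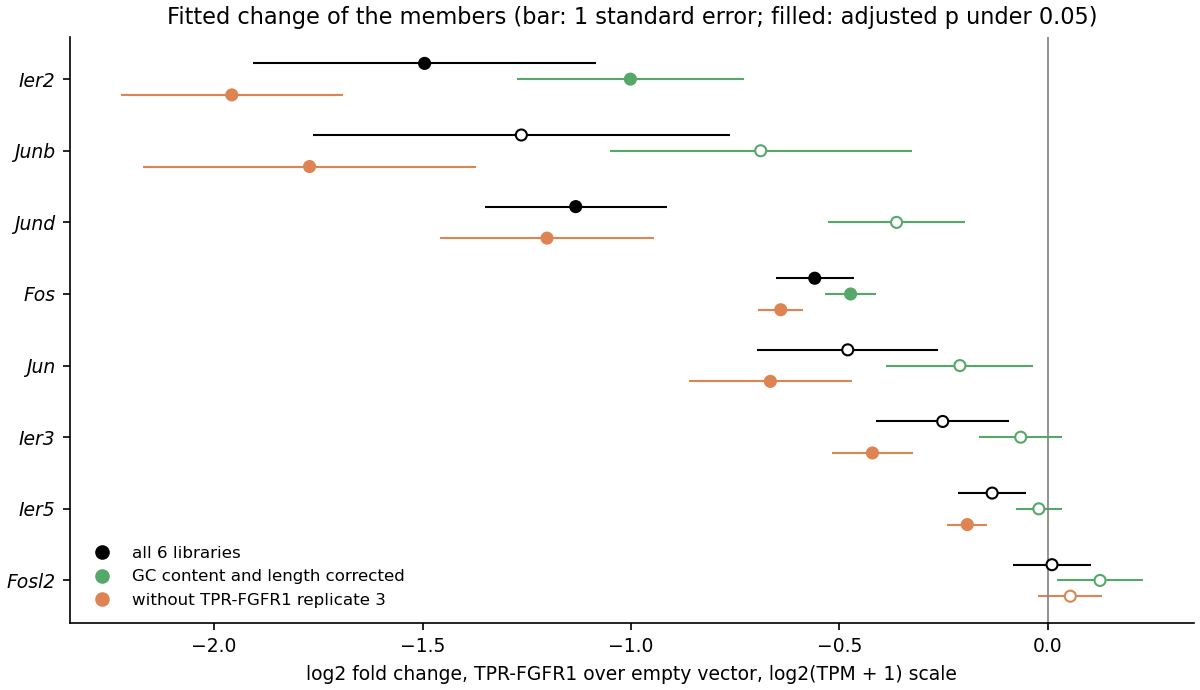
Log2 fold change of TPR-FGFR1 over empty vector for the 8 tested members, with bars of 1 standard error and filled points for an adjusted p under 0.05, in the fit of all 6 libraries, after the GC correction, and without TPR-FGFR1 replicate 3. Fos and Ier2 are filled in all 3 fits, Jund in the fits without the correction, and Fosl2 in none.

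The members have GC-rich transcripts, and GC content moved with the group difference across the transcriptome. The tested members had a median GC content of 55%, against 48.8% over tested genes. With the tested genes in 5 equal bins of GC content, Jun, Junb, Jund and Ier2 lay in the highest bin, where the median log2 fold change was −0.35 and 21.8% of genes were called lower, and Fos, Fosl2, Ier3 and Ier5 in the next, with −0.10 and 13.2%. Subtracting the median log2 deviation of the lowest bin from that of the highest, each taken against the empty vector mean, gave −0.69 and −0.86 for the first and second fusion replicates, −0.07 for TPR-FGFR1 replicate 3, and −0.05 to 0.05 for the empty vector libraries. Fos and Ier2 were called lower after a smooth trend over GC content and transcript length was removed from each library, and Jund was not, with 15.4% of all tested genes called lower in that fit and a member median of −0.29. The part of GC content in the members' changes was not tested beyond this correction.

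**Figure D5:**
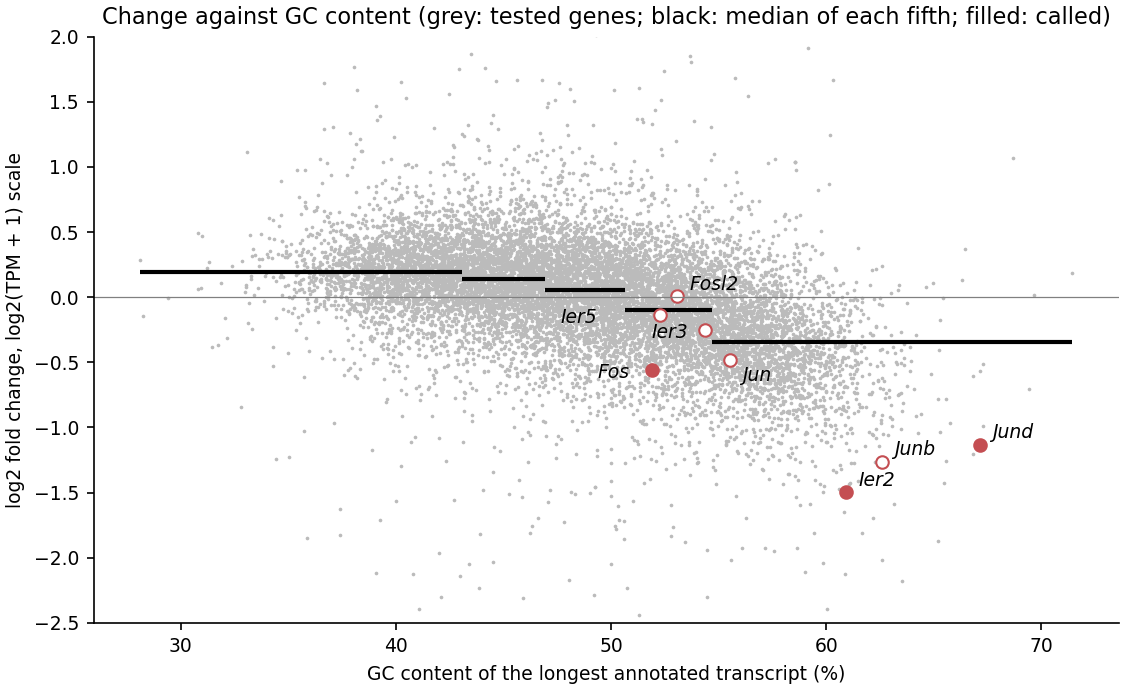
Log2 fold change of the tested genes with a known transcript (grey, with values beyond the axis left out) against the GC content of the longest annotated transcript, with black lines at the median of each of 5 equal GC bins and the members in red, filled where called. All members but Fosl2 lie below the median of their bins.

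Gene structure was also shared. Jun, Junb, Jund, Ier2 and Ier5 have 1 exon in their longest GENCODE transcript, as did 5.41% of tested protein-coding genes. Those 562 single-exon genes had a median log2 fold change of −0.02, against −0.003 over tested protein-coding genes and 0.02 over all tested genes. Of the 562, 74 were called lower and 59 higher, against 1197 and 1103 of 10382 tested protein-coding genes. The pentamer ATTTA, part of the AU-rich elements through which short-lived messages are degraded, occurred in the longest transcript of 9 members, all but Ier2, and in 82.3% of tested protein-coding genes. Fosl2 had the most, with 8, and Jund the fewest of those 9, with 1.

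Among AP-1 relatives outside the 10 members, Jdp2 fell and Maff rose. Of 15 such genes, 8 were tested, 1 rose and 1 fell, near the 10.2% and 10% of all tested genes, with a median log2 fold change of −0.18. After the GC correction 2 rose and 2 fell, against 16.4% and 15.4%, and without TPR-FGFR1 replicate 3, 1 rose and 4 fell, against 26.4% and 23.4%. Jdp2, which encodes a JUN dimerization protein that represses AP-1 sites, stood at 29.5, 30.5 and 30.5 TPM with the empty vector and at 12.0, 9.78 and 17 TPM with the fusion (log2 fold change −1.20, SE 0.178, limma adjusted p = 0.0107, and −0.89 after the GC correction). The groups were far apart, with replicate 3 again the highest of the fusion libraries. Maff, a small MAF protein gene without an activation domain, rose from 4.82 ± 0.762 to 7.71 ± 0.549 TPM (SD, n = 3 per group, limma adjusted p = 0.0243), and 8 of 23 settings did not call it. Batf, the lymphoid AP-1 partner of JUN proteins, stood at 23.7 ± 1.23 and 15.0 ± 5.94 TPM (adjusted p = 0.0765), with 21.9 TPM in replicate 3 and 11.7 and 11.5 TPM in replicates 1 and 2.

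Among other immediate early genes, Klf10 rose and Ppp1r15a, Dusp1 and Klf6 fell. Of 46 listed genes 32 were tested, 3 rose and 6 fell, where 10.2% and 10% of all tested genes did, and the median was −0.16. After the GC correction 3 rose and 4 fell with a median of 0.00, against 16.4% and 15.4% of all tested genes. Without TPR-FGFR1 replicate 3, 5 rose and 15 fell, against 26.4% and 23.4%. Klf10, an early growth factor response gene of the KLF family, stood at 5.37, 4.89 and 5.09 TPM with the empty vector and at 11.3, 11.5 and 10.9 TPM with the fusion, in narrow and separate ranges (log2 fold change 1.00, SE 0.0867, limma adjusted p = 0.00532). Ppp1r15a, which directs a phosphatase to a stress-regulated translation factor, fell from 169 ± 5.69 to 108 ± 19.1 TPM, Dusp1, a MAPK phosphatase gene, from 79.2 ± 6.25 to 59.3 ± 1.97 TPM, and Klf6 from 89.5 ± 2.11 to 65.7 ± 6.91 TPM (SD, n = 3 per group, limma adjusted p = 0.0183, 0.021 and 0.023). The Dusp1 call was lost after the correction (log2 fold change −0.22, adjusted p = 0.145), while Klf6 was at −0.61 (adjusted p = 0.000606). Myc, also an immediate early gene, stood at 113 ± 8.30 and 112 ± 10.1 TPM (adjusted p = 0.912). Nr4a1, Klf2, Klf4, Arc, Rhob and 9 further listed genes were under the filter.

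Among regulators upstream of these genes, Mapk9 and Crem rose, and Mrtfa and Rps6ka1 were among those that fell. Of 26 listed genes of the serum response factor, CREB and MAP kinase machinery 23 were tested, 2 rose and 5 fell, with a median of 0.00, against 10.2% and 10% of all tested genes. With the GC correction 1 rose and 5 fell, against 16.4% and 15.4%, and without TPR-FGFR1 replicate 3, 6 rose and 7 fell, against 26.4% and 23.4%. Mapk9, which encodes the JUN kinase JNK2, rose from 33.1 ± 2.22 to 56.4 ± 6.73 TPM (SD, n = 3 per group, limma adjusted p = 0.01). Mrtfa, an actin-regulated coactivator of serum response factor, fell from 11.9 ± 1.67 to 5.91 ± 1.46 TPM (adjusted p = 0.0181), and was at −0.51 on the log2 scale after the GC correction, from −0.91. Crem, a CREB family gene, rose from 12.5 ± 2.20 to 20.02 ± 2.71 TPM (adjusted p = 0.0288), and Rps6ka1, an ERK-activated kinase gene, fell from 28.1 ± 1.78 to 20.8 ± 2.16 TPM (adjusted p = 0.0309). The calls of Crem and Rps6ka1 were each lost in 11 of 23 settings, and Rps6ka1 was at −0.06 after the correction. Srf itself stood at 12.7, 11.3 and 10.3 TPM with the empty vector and at 4.88, 3.97 and 9.22 TPM with the fusion (adjusted p = 0.0517). Its groups did not overlap and replicate 3 was the highest fusion library, as for Ier2 and Fos. Its log2 fold change was −0.89, and −0.22 after the GC correction (adjusted p = 0.12).

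Of 17 genes listed as regulators of AP-1 proteins or of AU-rich messages, all tested, 3 rose and 3 fell, with a median of −0.02, against 10.2% and 10% of all tested genes. Usp28, a deubiquitinase gene whose product stabilises JUN, rose from 9.88 ± 1.05 to 15.2 ± 0.2 TPM (SD, n = 3 per group, limma adjusted p = 0.0136). Cops5, which encodes a JUN-binding subunit of the COP9 signalosome, fell from 102 ± 2.30 to 78.6 ± 1.12 TPM (adjusted p = 0.0144). Hnrnpd and Khsrp, whose products bind AU-rich elements and promote decay, fell from 254 ± 9.97 to 192 ± 16.7 TPM and from 46.0 ± 2.43 to 29.5 ± 5.76 TPM (adjusted p = 0.025 and 0.0258). These 4 genes were also called after the GC correction, and Khsrp was then at −0.29 on the log2 scale, from −0.64. Of the 17 genes, 4 rose and 5 fell in that corrected fit, where 16.4% and 15.4% of all tested genes did. Without TPR-FGFR1 replicate 3, 7 rose and 6 fell, against 26.4% and 23.4%.

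In the limma fit of all 6 libraries, without the GC correction, known AP-1 target genes outside the members were not called in either direction. Of 23 listed genes, 14 that are not members were tested and 0 were called. Over all tested genes 10.2% were called higher and 10% lower. At an unadjusted limma p under 0.05, 3 of the targets were higher and 3 lower, and their median was −0.13. Without TPR-FGFR1 replicate 3, 3 were called higher and 6 lower, where 26.4% and 23.4% of all tested genes were. Hmox1, the haem oxygenase gene, stood at 46.7 ± 0.362 and 35.3 ± 6.11 TPM (SD, n = 3 per group, adjusted p = 0.0544), and Cd44, an adhesion receptor gene, at 42.6 ± 1.93 and 52.3 ± 5.06 TPM (adjusted p = 0.0691). Hmox1 was called lower after the GC correction (−0.27, adjusted p = 0.0282) and in 9 of 23 settings. Both were named after their values were seen. Ccnd1, the cyclin D1 gene, was under the filter at 0.13 to 0.21 TPM.

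Genes listed for the ATF4 stress response, a pathway shared with ATF3, fell in part. Of 12 listed genes 11 were tested, 0 rose and 6 fell, with a median of −0.57, where 10% of all tested genes fell. With the GC correction 7 fell with a median of −0.30, where 15.4% of all tested genes fell. Without TPR-FGFR1 replicate 3, 1 rose and 9 fell, against 26.4% and 23.4%. Atf5 fell from 50.9 ± 4.06 to 14.2 ± 4.02 TPM, Ddit4, an inhibitor gene of the mTOR pathway, from 75.0 ± 14.4 to 33.7 ± 4.54 TPM, and Sesn2 from 36.4 ± 1.13 to 21.9 ± 3.68 TPM (SD, n = 3 per group, limma adjusted p = 0.00651, 0.00913 and 0.0135). Ppp1r15a, given above, is in this list as well. Atf4 itself was not called (log2 fold change −0.23, limma adjusted p = 0.0617), and was at 0.03 after the GC correction (adjusted p = 0.812). Ddit3 was not called either (−0.18, adjusted p = 0.267, and −0.31, adjusted p = 0.143, after the correction). Under the GC correction Sesn2 was at −0.30, from −0.72, and Ppp1r15a at −0.37, from −0.65, and both were still called (adjusted p = 0.00814 and 0.00383). Heat shock genes, which handling of cells can induce, were also counted. Of 9 listed genes 5 were tested, 0 rose and only Hspe1 fell, from 463 ± 4.19 to 388 ± 14.3 TPM (adjusted p = 0.0447). The summed level of that list was 1633 to 1715 TPM with the empty vector and 1484 to 1815 TPM with the fusion. Hspa1a, Hspa1b, Hspb1 and Bag3 were under the filter.

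The 3 tested genes nearest to each of Fos, Jun and Ier2 over the 6 libraries were taken by the root mean square difference of centred log2(TPM + 1) values. Only genes whose SD reached a set share of the member's own were searched. Gm and Rik genes and antigen receptor segments were left out. With many genes and 6 values each, near matches are found in any case, and no reference level was computed. Closest to Fos were Soat2 (0.0273), Lhpp (0.0283) and Uhrf1bp1 (0.0288), against an SD of 0.322 for Fos itself. Closest to Jun were Tor2a (0.0572), Tpra1 (0.0603) and Tjp3 (0.0751), against an SD of 0.393. Closest to Ier2 were the small nucleolar RNA host gene Snhg8 (0.117), Elob (0.136) and Glrx5 (0.15), against an SD of 1.01. Snhg8 stood at 896, 652 and 554 TPM with the empty vector and at 199, 186 and 465 TPM with the fusion. Like Ier2, it was highest in empty vector replicate 1 and, among the fusion libraries, in replicate 3. Snhg8 was picked for its closeness to Ier2 in these same 6 libraries, so the shared order adds nothing to that closeness.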

How the data were processed

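Messenger RNA of 6 Ba/F3 libraries was made with a stranded Illumina mRNA kit from 1 µg of total RNA, per the labels' protocols. The authors deposited TPM values, per the file's name and columns that sum to 1e+06 within rounding, with at most 2 decimals. Fastp, HISAT2, StringTie and build GRCm39 are named in the submitters' processing notes, without versions. The annotation release and the strandedness used in quantification are likewise not given in the sources used here. Because TPM holds no read number, depth is unknown and no counting interval was computed. Columns of other samples numbered 0.

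Symbols, GC content, exon numbers and lengths came from GENCODE M21 (GRCm38), matched by gene ID (91.3% of IDs), and promoters from RefSeq on GRCm38.p6. Values were analysed as log2(TPM + 1), and log2 fold changes are on that scale, for 12862 genes (mean over the 6 libraries of 1 TPM or more), with limma 3.58.1 in R 4.3.3 (lmFit, eBayes with trend, group as the only term) and Benjamini-Hochberg adjustment over all tested genes. The pipeline was tested on simulated data. The members, lists and rules were chosen with earlier results of these data known. The named genes are the 10 members, Fgfr1, up to 4 called genes of smallest adjusted p per list, and the 3 genes most like Fos, Jun and Ier2 (mean of at least 5 TPM); others are examples chosen after their values were seen. The listed regulator Rps6ka4 is not analysed here. Alternatives were 2 pseudocounts, 2 filters, 3 scalings, 2 variance models, array weights, the replicate number as a block, a spline correction for GC content and length (4 degrees of freedom, 12541 genes), protein-coding genes alone and leaving out each library; 2 settings were added after the data were seen.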

Additional observations from a re-analysis of the deposited data

How the results depend on the processing

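Of the 23 alternatives, 0 called a member higher and none reversed a called member. Counts of members called lower (3 in the fit of all libraries) were 1 without the filter on low values, 7 with arrayWeights, 1 with the GC correction and the replicate block together, 7 without both empty vector replicate 1 and TPR-FGFR1 replicate 3, and 0 to 7 leaving out each library in turn, the 7 being without TPR-FGFR1 replicate 3 and the 0 without any empty vector library or TPR-FGFR1 replicate 1. The Fos, Jund and Ier2 calls were lost in 4, 10 and 11 settings. The member median was −0.29 with the GC correction, with or without the block, −0.24 with the GC correction without TPR-FGFR1 replicate 3 and −0.11 with the GC correction without both libraries. Higher and lower calls over all genes (1309 and 1291) became 620 and 526 without the filter, 5138 and 4143 with arrayWeights, 343 and 421 with the replicate block, 2052 and 1934 with the GC correction, 2518 and 2390 with the GC correction without TPR-FGFR1 replicate 3, 2983 and 2889 without both libraries, 2236 and 2266 with the GC correction without both, and 3 to 3395 and 8 to 3012 leaving out each library. The causes of these differences were not tested. Replicate numbers gave no sign of pairing the samples: same-numbered deviations from the group means correlated at −0.193, −0.075 and −0.153, and no sample correlated best with its own number. Deviations within groups of 3 libraries are tied to each other, so this check cannot exclude a pairing. With the replicate block 2 members (Fos and Jund) were called lower, and Ier2 had an adjusted p of 0.0632. Other settings left each of these counts within 1.5 times. Over the 23 settings, lower calls ran from 0 to 16 among other immediate early genes and 0 to 9 among the ATF4 response genes. They ran from 0 to 8 among AP-1 targets and among upstream regulators. Among the listed regulators of AP-1 proteins or of AU-rich messages they ran from 0 to 7, and among other AP-1 genes from 0 to 5. Depth is unknown, so limits set by read number could not be given, and Atf3 and Egr1 rest on values under 1 TPM.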
